A study of Mus musculus with 2 samples.

Results

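Epcam, Krt7, Krt19, Sox9, Cldn3, Cldn7 and Fxyd3 are genes of the bile duct epithelium and of the ductular reaction, and their transcripts were followed in mouse liver sections by spatial transcriptomics (ST). They were taken by symbol, and each of the 7 matched 1 of the 32285 gene identifiers counted in both sections. In the section from a mouse on a high-fat diet (HFD) 6 of the 7 genes, all but Cldn3, were higher relative to all counted molecules than in the section from a mouse on a normal chow diet (NCD), by 1.82-fold to 2.88-fold. When spots were drawn at random down to an equal depth of 3000 molecules, few molecules of these genes were left and the size of the difference varied between draws. In both sections these 6 were concentrated in periportal spots, and each was higher in spots that held another of them. Sox9 was raised less than the others in the HFD section, while in the NCD section it was not clearly separated from Cldn7. Cldn3 was found in many more spots, at a similar level in both sections, slightly higher in pericentral than in periportal spots, and at a similar level in spots with and without the other genes.

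Bile ducts run through the portal tracts at the edge of each liver lobule and are lined by cholangiocytes, which alter the bile that hepatocytes secrete. In liver injury, strings of small ductular cells can spread from the portal tracts, the ductular reaction, and hepatocytes next to the tract can take up some cholangiocyte genes, Sox9 among them. EPCAM is an adhesion molecule of the cell surface, keratins 7 and 19 form the filaments of simple ductal epithelium, SOX9 is a transcription factor of ductal and progenitor cells, claudins 3 and 7 are membrane proteins of cell junctions, and FXYD3 regulates the sodium pump. Cldn3 is also made by hepatocytes.

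Both mice were male C57BL/6J animals, bought at 5 weeks of age. The NCD mouse received normal chow and the HFD mouse a diet with 60% fat for 14 weeks to induce non-alcoholic fatty liver disease (NAFLD), and both then took part in an intervention of 8 weeks, in which these groups were given distilled water. A frozen section of 10 µm from 1 mouse of each diet was placed on a Visium slide, on which each spot captures the RNA of several cells, tags each molecule with a unique molecular identifier (UMI) and gives counts of UMIs per gene. With 1 section per diet there was no replicate, so that diet, mouse, section and slide cannot be told apart, no test was made, and every interval in parentheses is a 95% interval of counting error only.

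The sections are called NCD liver and HFD liver below. NCD liver was covered by 3692 spots, which gave 29037988 UMIs (median 4187.5 per spot), and HFD liver by 3594 spots, which gave 72118803 (median 18549). Of the UMIs of each capture area, 19.1% (NCD) and 2.93% (HFD) lay in spots off tissue. The sections share 3173 spot barcodes, which name positions on the array and not cells. The labels tag the samples as liver and also as immune cells, and Alb, the serum albumin gene of hepatocytes, stood at 56011 and 57872 counts per 1000000 UMIs (CPM) against 6.61 and 10.7 CPM of the leukocyte gene Ptprc, so that the sections are described here as whole liver. Levels below are CPM over all spots of a group.

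The stretches before the transcription start are shown for the claudin pair, of which Cldn7 was periportal and Cldn3 was not, and for Fxyd3, which shared spots with Cldn7. The RefSeq promoter table on GRCm38.p6 held 6 entries for 5 of the genes, and Krt19 and Sox9 were not in it. For Cldn7, which has 2 entries, the one that starts at the first base of the gene is shown. Each sequence below gives the 250 bases before the start, 5′ to 3′ on the strand of the gene, and capitals mark GGAATG, the binding motif of TEAD factors, which act with YAP in ductal cells.
Cldn3, chr5:134985964-134986213, plus strand: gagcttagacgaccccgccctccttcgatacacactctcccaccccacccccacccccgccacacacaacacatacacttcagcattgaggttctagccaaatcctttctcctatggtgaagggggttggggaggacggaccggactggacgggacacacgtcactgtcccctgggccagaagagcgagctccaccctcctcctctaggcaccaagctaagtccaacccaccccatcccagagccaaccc
Cldn7, chr11:69964529-69964778, plus strand: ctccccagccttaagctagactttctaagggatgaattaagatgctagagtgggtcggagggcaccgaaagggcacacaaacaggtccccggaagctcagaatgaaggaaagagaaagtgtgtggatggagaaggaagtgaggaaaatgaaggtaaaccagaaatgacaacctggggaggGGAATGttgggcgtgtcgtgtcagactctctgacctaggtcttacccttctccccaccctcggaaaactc
Fxyd3, chr7:31076698-31076947, minus strand: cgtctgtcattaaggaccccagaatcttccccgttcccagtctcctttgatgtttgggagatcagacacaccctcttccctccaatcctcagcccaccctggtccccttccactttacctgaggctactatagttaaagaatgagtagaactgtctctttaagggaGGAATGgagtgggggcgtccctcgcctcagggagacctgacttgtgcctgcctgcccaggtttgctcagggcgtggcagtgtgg
In windows of 250 bases before to 50 after the start, searched on both strands, GGAATG was found in 2 of the 6 entries and in 14.7% of 32851 promoters. It started 70 bases before the start of Cldn7 printed here and 84 bases before that of Fxyd3. The second Cldn7 entry and those of Cldn3, Epcam and Krt7 had no match, though Epcam and Krt7 were periportal too. The SOX motif ACAATG was in 0 of the 6 entries and in 12.6% of all promoters, and the HNF1 motif was in 0 of the 6 and in 3 promoters in all. A match of letters is a description of the window and does not show that a factor was bound.

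The genes lie on 5 chromosomes (GRCm38, GENCODE M21). Epcam (ENSMUSG00000045394) spans chr17:87635979-87651129 on the plus strand, Krt7 (ENSMUSG00000023039) chr15:101411043-101430313 on the plus strand and Krt19 (ENSMUSG00000020911) chr11:100140810-100148665 on the minus strand. Sox9 (ENSMUSG00000000567) spans chr11:112782224-112787760 on the plus strand, Cldn3 (ENSMUSG00000070473) chr5:134986214-134987472 on the plus strand, Cldn7 (ENSMUSG00000018569) chr11:69964779-69967885 on the plus strand and Fxyd3 (ENSMUSG00000057092) chr7:31068172-31076704 on the minus strand. A UMI is counted from the 3′ end of a transcript and is not scaled by length, so levels are compared between sections and spots and not between genes.

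The first comparison was that of HFD with NCD liver. Epcam had 69 UMIs in NCD liver and 356 in HFD liver, which is 2.38 CPM (1.85 to 3.01) and 4.94 CPM (4.44 to 5.48). The intervals did not overlap, and the ratio was 2.08-fold (1.60 to 2.73), or 1.05 on the log2 scale. Spots with an Epcam UMI made 1.46% of NCD spots and 6.87% of HFD spots, shares that also follow the depth per spot. To compare at equal depth, each spot with at least 3000 UMIs was drawn down at random to 3000 UMIs, in 2 separate draws. This also left out 1585 NCD and 56 HFD spots and gave every remaining spot the same weight. A shift from the ratio over all spots is therefore not one of depth alone. In the first draw the shares were 0.949% (0.581 to 1.46) and 1.10% (0.785 to 1.50), with a log2 ratio of 0.12 (-0.65 to 0.92), and the second gave 0.664% (0.364 to 1.11) and 1.13% (0.809 to 1.54), with a log2 ratio of 0.77 (-0.11 to 1.73). The size of the Epcam difference at equal depth therefore depended on the draw.

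The keratins were scarce. Krt7 had 16 UMIs (0.551 CPM, 0.315 to 0.895) in NCD liver and 91 UMIs (1.26 CPM, 1.02 to 1.55) in HFD liver, so that the log2 ratio was 1.20 (0.42 to 2.06). Krt19 had 27 UMIs (0.930 CPM, 0.613 to 1.35) and 193 UMIs (2.68 CPM, 2.31 to 3.08), with a log2 ratio of 1.53 (0.94 to 2.16). Neither gene's intervals overlapped between the sections. At 3000 UMIs per spot, Krt7 was left in 2 of 2107 NCD spots and 14 of 3538 HFD spots in the first draw, a log2 ratio of 2.06 (-0.06 to 5.24), and in 7 and 16 in the second, a ratio of 0.61 (-0.71 to 2.12). Krt19 was left in 10 and 23 spots, a ratio of 0.57 (-0.53 to 1.80), and then in 8 and 31, a ratio of 1.13 (0.03 to 2.38). These counts are too small to fix the size of either ratio at equal depth. At 1000 UMIs the ratio of Krt7 was -0.33 in the first draw, on 1 UMI in each section, and 1.67 in the second, on 1 and 4. Among the 5 keratins of simple epithelium with at least 20 UMIs (of 6 listed), 4 were at least 2-fold higher in HFD liver, beside a background of 13.5% of the 14184 genes that had 20 or more UMIs in all, and besides Krt7 and Krt19 these were Krt8, at 1.48 on the log2 scale (1.43 to 1.52), and Krt23, at 2.48 (1.87 to 3.16). Krt8 pairs with Krt18 in hepatocytes as well as in duct cells, and the ratio of Krt18 was 0.68 (0.62 to 0.73).

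Sox9 had 75 UMIs (2.58 CPM, 2.03 to 3.24) in NCD liver and 339 UMIs (4.70 CPM, 4.21 to 5.23) in HFD liver, a ratio of 1.82-fold (1.41 to 2.37). A Sox9 UMI was seen in 1.87% of NCD spots and 8.35% of HFD spots, or at 3000 UMIs in 0.712% (0.399 to 1.17) and 1.07% (0.761 to 1.47) of spots in the first draw and in 0.664% (0.364 to 1.11) and 1.38% (1.03 to 1.83) in the second. The log2 ratio, 0.86 (0.50 to 1.24) over all spots, was 0.59 (-0.30 to 1.56) and 1.09 (0.21 to 2.06) in these draws.

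The claudins differed from each other. Cldn3 had 2366 UMIs (81.5 CPM, 78.2 to 84.8) in NCD liver and 6578 UMIs (91.2 CPM, 89.0 to 93.4) in HFD liver, a ratio of 1.12-fold (1.07 to 1.17). At 3000 UMIs per spot, 22.3% (20.5 to 24.1) and 24.6% (23.2 to 26.0) of spots held a Cldn3 UMI, and the log2 ratio was 0.11 (-0.05 to 0.26) in the first draw, as in the second (-0.04 to 0.26). Cldn7 had 28 UMIs (0.964 CPM, 0.641 to 1.39) and 157 UMIs (2.18 CPM, 1.85 to 2.55), a ratio of 2.26-fold (1.50 to 3.51). The interval of the Cldn7 ratio lay above that of Cldn3. At 3000 UMIs per spot the log2 ratio of Cldn7 was 0.84 (-0.45 to 2.31) and 1.39 (-0.05 to 3.15) in the draws. Of 16 listed tight junction genes, which include both claudins, 4 were at least 2-fold higher in HFD liver, beside the background of 13.5%, and their median log2 ratio was 0.17, and the most counted of the others, F11r, Cldn2 and Cldn12, were at -0.20, -0.25 and -0.27.

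Fxyd3 had 55 UMIs (1.89 CPM, 1.43 to 2.47) in NCD liver and 270 UMIs (3.74 CPM, 3.31 to 4.22) in HFD liver, a ratio of 1.98-fold (1.47 to 2.69). At 3000 UMIs it was in 10 NCD and 31 HFD spots in the first draw, with a log2 ratio of 0.67 (-0.33 to 1.76), and in 9 and 37 in the second, with a ratio of 1.25 (0.23 to 2.42). At 1000 UMIs the ratios were -0.18 on 9 and 10 UMIs and 1.40 on 3 and 10. Atp1b1, which codes for a beta subunit of the sodium pump, was higher in HFD liver by 0.80 (0.71 to 0.90) on the log2 scale, and Fxyd1 and Fxyd5 by 0.33 (0.30 to 0.37) and 0.62 (0.46 to 0.78). Of the 9 genes in the pump list, which include Fxyd3, 7 had at least 20 UMIs. Of these, 0 were at least 2-fold higher, beside 13.5% of all genes, with Fxyd3 just under that cut at 1.98-fold. At least 2-fold lower was 1, Fxyd2, beside 3.26% of all genes. It was at -1.41 (-2.57 to -0.26) on 15 NCD and 14 HFD UMIs.

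Of the 7 bile duct genes, 4 (Epcam, Krt7, Krt19 and Cldn7) were at least 2-fold higher in HFD liver, beside the background of 13.5% of genes. The median log2 ratio was 1.05 over the 7 genes and 0.26 over all 14184. Summed, the 7 genes were at 90.8 CPM (87.3 to 94.3) in NCD liver and 111 CPM (108 to 113) in HFD liver, with Cldn3 holding most UMIs of the sum, and the log2 ratio was 0.29 (0.22 to 0.35). The 6 genes without Cldn3 were at 9.30 CPM (8.22 to 10.5) and 19.5 CPM (18.5 to 20.5), and their log2 ratio was 1.07 (0.88 to 1.26). At 3000 UMIs per spot it was 0.57 (0.16 to 0.99) in the first draw and 1.03 (0.61 to 1.47) in the second, where the intervals of Krt19, Sox9 and Fxyd3 lay above 0, as none of the 7 did in the first. A larger number of duct cells in the section, more RNA per duct cell and transcripts of hepatocytes next to the tract cannot be told apart in these counts. The amount of periportal tissue in each section also enters the pooled ratio and was not measured.

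RNA found off tissue bears on the NCD values. Off tissue in the NCD capture area, Epcam stood at 2.18 CPM (1.22 to 3.60) from 15 UMIs, Sox9 at 2.91 CPM (1.78 to 4.50) from 20 UMIs and Cldn3 at 85.4 CPM (78.7 to 92.6) from 587 UMIs. Each of these was close to the level over tissue, and for all 7 genes the NCD interval of the log2 ratio of tissue to off-tissue CPM included 0. Off the HFD tissue, Epcam had 1 UMI (0.459 CPM, 0.0116 to 2.56) and the 6 genes without Cldn3 had 23 UMIs (10.6 CPM, 6.70 to 15.9), while the level over tissue was higher by 0.88 on the log2 scale (0.29 to 1.55). Gene by gene, the interval of that HFD ratio lay above 0 for Epcam and Cldn3 and included 0 for the other 5, which had 3 to 8 UMIs off tissue. What is left of the NCD level after subtraction of the off-tissue CPM is thus not distinguishable from 0 for any of the 7 genes, and no ratio of such differences is given here. CPM is a share of each area's own UMIs, so RNA of like composition on and off tissue leaves such a remainder at any level. The remainder therefore does not show that the genes were absent from NCD tissue.

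**Figure D1:**
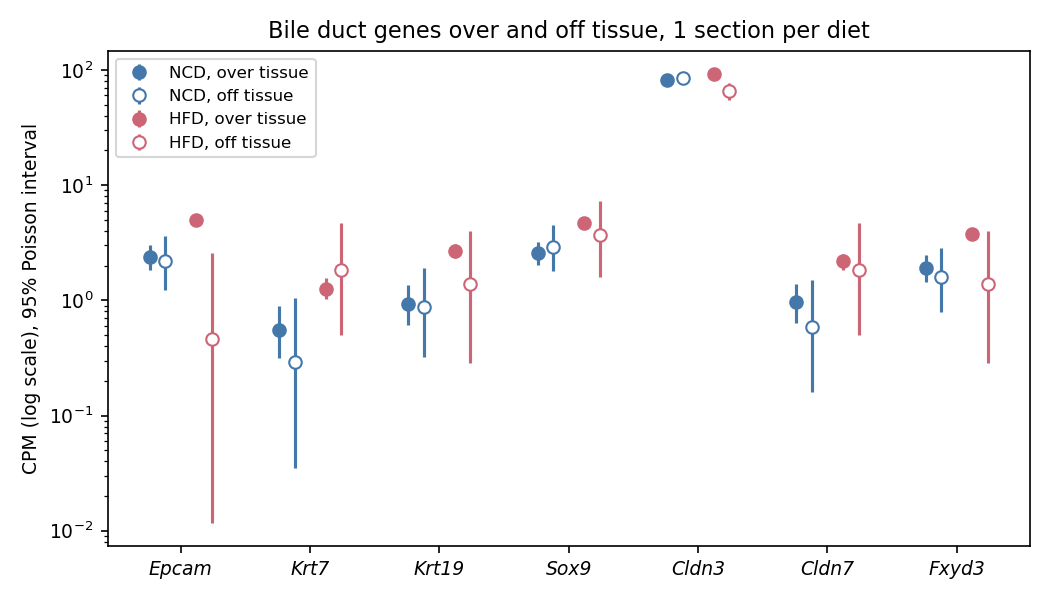
Level of each gene in CPM on a log axis, over tissue (filled) and off tissue (open), in the NCD (blue) and HFD (red) section, with 95% Poisson intervals. Over tissue the HFD value lies above the NCD value for each of the 7 genes, by 1.12-fold for Cldn3 and 2.88-fold for Krt19, and each NCD value over tissue lies within the NCD interval off tissue, as 81.5 CPM does for Cldn3.

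The second comparison was that of lobule position. Spot coordinates were not used, so spots with at least 1000 UMIs were ranked by the log2 ratio of periportal hepatocyte transcripts (Cyp2f2, Hal, Sds, Gls2 and Hsd17b13) to pericentral ones (Cyp2e1, Oat, Glul, Slc1a2 and Cyp1a2), with 1 added to both counts, and split in each section into 5 zones of equal spot number, of which zone 1 was the most pericentral and zone 5 the most periportal. Epcam was at 0.477, 0.803, 1.92, 4.46 and 5.99 CPM from zone 1 to zone 5 of NCD liver, and at 1.32, 1.51, 2.44, 5.27 and 10.7 CPM in HFD liver. The values increased at each step in both sections. Between zones 5 and 1 the log2 ratio was 3.65 (1.93 to 6.03) in NCD liver, on 24 and 3 UMIs, and 3.02 (2.32 to 3.80) in HFD liver, on 219 and 18 UMIs.

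Krt7 had 0 UMIs in NCD zone 1, which allows up to 0.477 CPM by the limit of 3 counts over that zone, and 4 UMIs (0.999 CPM) in zone 5, at least 2.09-fold more by that limit and at least 1.04-fold more by the interval of the ratio. Krt19 had 0 and 11 UMIs (2.75 CPM) there, at least 5.76-fold and 3.94-fold more by the same measures. In HFD liver Krt7 went from 0.512 to 2.97 CPM, a log2 ratio of 2.53 (1.40 to 3.91), and Krt19 from 0.951 to 5.25 CPM, a log2 ratio of 2.47 (1.63 to 3.42). Most HFD UMIs of Krt7 in ranked spots, 61, came from zone 5, beside 10 or fewer in each of the others. Krt8 and Krt18 had smaller ratios, 0.48 (0.43 to 0.53) and 0.70 (0.62 to 0.77) in HFD liver and -0.19 (-0.34 to -0.04) and 0.05 (-0.11 to 0.21) in NCD liver. Krt23 was pericentral in HFD liver, at -1.15 (-1.61 to -0.69) on 70 UMIs in zone 5 and 103 in zone 1. Its NCD ratio was 1.24 (-0.42 to 3.01) on 9 and 6 UMIs.

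Sox9 was at 1.43, 1.12, 1.18, 4.09 and 6.74 CPM over the NCD zones and at 1.90, 2.07, 3.45, 3.71 and 9.54 CPM over the HFD zones. Its log2 ratios between zones 5 and 1 were 2.24 (1.10 to 3.51) and 2.33 (1.73 to 2.98). Sox9 was thus periportal in both sections, with 9 NCD and 26 HFD UMIs left in zone 1. The NCD ratio was 1.17 (-0.06 to 2.55) when position came from a second pair of zone lists.

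Cldn3 went the other way. It was at 91.5, 76.6, 82.6, 77.9 and 77.4 CPM over the NCD zones and at 106, 95.7, 90.0, 84.4 and 83.5 CPM over the HFD zones, with log2 ratios of -0.24 (-0.44 to -0.04) and -0.35 (-0.45 to -0.25). The HFD values decreased at every step, while in NCD liver zone 1 was the highest and the intervals of the other 4 zones overlapped. Cldn7 was at 0.318 CPM (2 UMIs) and 3.0 CPM (12 UMIs) in NCD zones 1 and 5, a log2 ratio of 3.24 (1.07 to 6.44), and at 0.585 and 4.77 CPM in HFD zones 1 and 5, a ratio of 3.03 (1.99 to 4.28). For another claudin, Cldn2, known for its pericentral expression, the ratios were -1.99 (-2.34 to -1.66) and -1.84 (-2.01 to -1.68).

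Fxyd3 was at 0.159, 0.482, 1.78, 4.46 and 3.75 CPM over the NCD zones and at 1.10, 1.19, 2.11, 3.27 and 8.32 CPM over the HFD zones. The NCD log2 ratio was 4.56 (1.86 to 9.95) on 15 and 1 UMIs, and the HFD ratio 2.92 (2.16 to 3.79) on 171 and 15 UMIs. The NCD values of Fxyd3 and Krt7 were highest in zone 4, with intervals that overlapped those of zone 5.

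**Figure D2:**
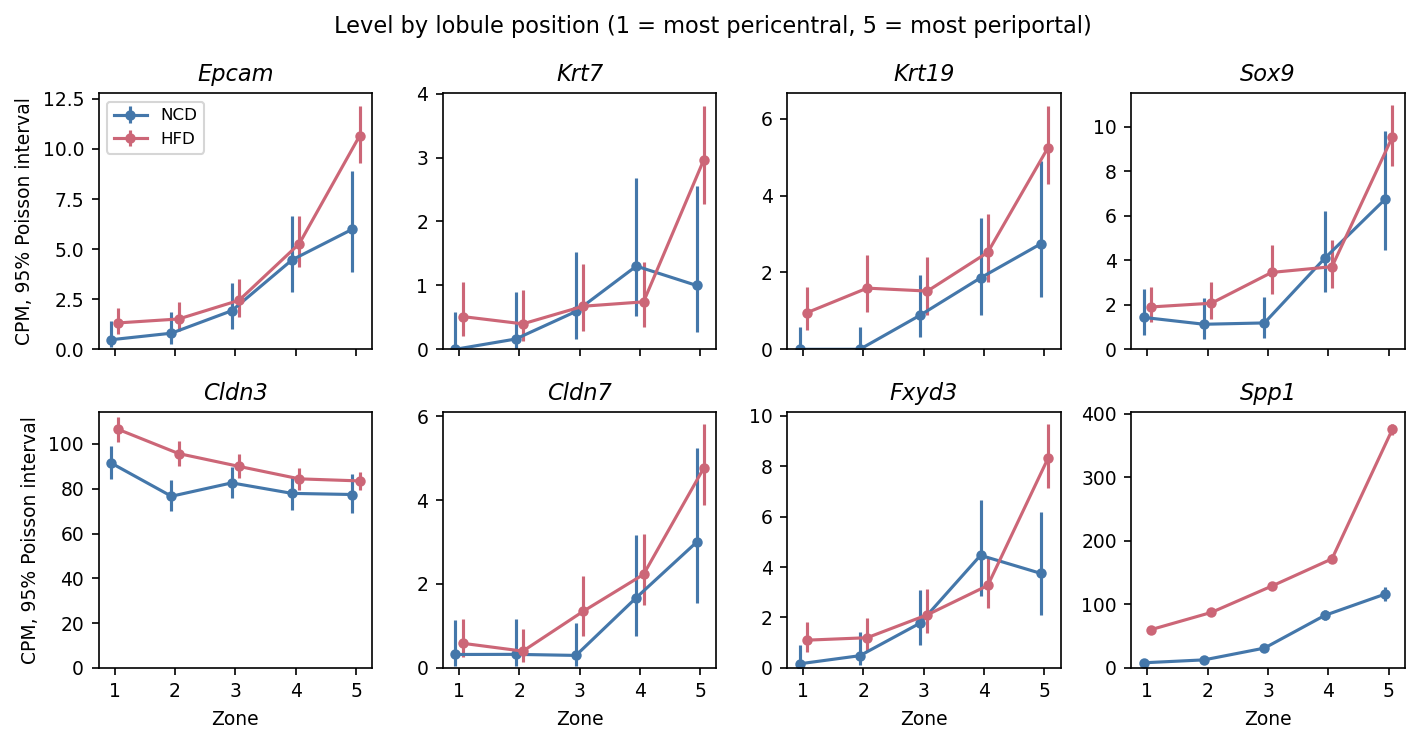
CPM of the 7 genes and of Spp1, the osteopontin gene of cholangiocytes and, in the paper, of a macrophage subgroup, over the 5 zones of spots from pericentral (1) to periportal (5) in the NCD (blue) and HFD (red) section, with 95% Poisson intervals. Cldn3 declines from 106 to 83.5 CPM over the HFD zones, while the other genes have their highest HFD value in zone 5, such as 10.7 CPM for Epcam and 375 CPM for Spp1.

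Position thus separated Cldn3 from the rest. Among genes with at least 20 UMIs in zones 1 and 5 together, 2 of 3 bile duct genes in NCD liver (Epcam and Sox9) and 6 of 7 in HFD liver were at least 2-fold higher in zone 5 than in zone 1, beside backgrounds of 2.69% of 10260 genes and 4.41% of 12758 genes. Krt7, Krt19, Cldn7 and Fxyd3 had fewer than 20 UMIs in those NCD zones and are given above by their counts. Summed without Cldn3, the log2 ratio was 3.28 (2.49 to 4.18) in NCD liver and 2.70 (2.38 to 3.04) in HFD liver, and for all 7 genes 0.10 (-0.09 to 0.29) and 0.15 (0.06 to 0.24). Depth differed along the lobule, with NCD medians of 8447 UMIs per spot in zone 1 and 3932 in zone 5, and HFD medians of 18159 and 27702.5. Its part in the ratios was not tested, and ratios are between CPM.

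Zone by zone, the HFD to NCD log2 ratio of the 6 genes was 1.42 (0.62 to 2.31) in zone 1, 1.31 (0.57 to 2.13) in zone 2, 0.79 (0.30 to 1.31) in zone 3, -0.01 (-0.36 to 0.35) in zone 4 and 0.84 (0.53 to 1.16) in zone 5. Zone 4 was the 1 zone whose interval included 0. Zones were ranked within each section, so zones of the same number are not matched positions. The median position on the log2 scale was -5.21 (NCD) and -3.82 (HFD) in zone 1, and 0.74 and 0.98 in zone 5. Genes of the ranking also differed between the sections, such as Hsd17b13 at 1.63 and Cyp1a2 at -2.95 (log2 of HFD to NCD). With the zones weighted equally the ratio was 0.67 in place of 1.07, where the pooled HFD value draws more of its UMIs from zone 5. Cldn3 was higher in HFD liver by 0.22 (0.08 to 0.36) and 0.32 (0.17 to 0.48) in zones 1 and 2, and its intervals included 0 in the other 3 zones. For Epcam, Krt7, Krt19 and Fxyd3 the interval lay above 0 in zone 5, at 0.83, 1.57, 0.94 and 1.15, and for Sox9 and Cldn7 it included 0 there, at 0.50 (-0.09 to 1.14) and 0.67 (-0.20 to 1.67).

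Spots with a UMI of any of the 6 genes made 2.45%, 2.80%, 4.39%, 9.47% and 9.65% of spots over the NCD zones, and 9.89%, 10.6%, 15.6%, 21.6% and 48.3% over the HFD zones. The HFD share in zone 5 (interval 44.6 to 52.1%) lay above that in zone 4 (18.6 to 24.8%), and the depth of these spots was also the highest. Spots with at least 2 of the 6 genes numbered 43 in NCD liver, with 21 in zone 4 and 16 in zone 5, and 222 in HFD liver, with 165 (74.3%) in zone 5. At least 3 of the 6 genes were seen in 11 NCD and 87 HFD spots, of which 72 HFD spots (82.8%) lay in zone 5. All 6 were seen in 3 HFD spots, and no more than 5 in any NCD spot. At 3000 UMIs per spot, any of the 6 genes was in 2.47% (1.85 to 3.22) of NCD and 4.30% (3.65 to 5.02) of HFD spots in the first draw, and in 2.18% (1.60 to 2.90) and 4.80% (4.12 to 5.56) in the second. At least 2 of them were in 0.427% (0.195 to 0.809) of NCD and 0.311% (0.155 to 0.556) of HFD spots in the first draw and in 0.475% (0.228 to 0.871) and 0.509% (0.302 to 0.803) in the second, so that at equal depth the share of spots with several of the genes was not seen to be higher in HFD liver.

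**Figure D3:**
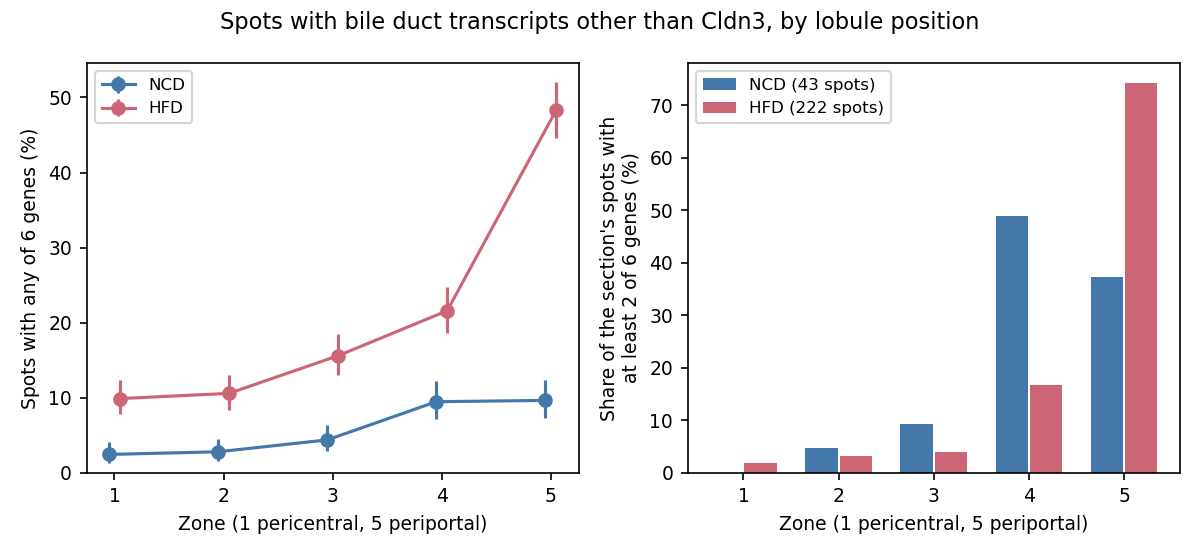
Left, percent of spots in each zone with a UMI of any of the 6 genes without Cldn3, with 95% Clopper-Pearson intervals; right, how each section's spots with at least 2 of the 6 genes (43 NCD, 222 HFD) divide among the zones, in percent. The HFD section reaches 48.3% of spots and 74.3% of its multi-gene spots in zone 5, whereas 21 and 16 of the 43 NCD multi-gene spots lie in zones 4 and 5.

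The third comparison asked whether the genes share spots. Over spots with at least 3000 UMIs, 52 of 2107 NCD spots and 247 of 3538 HFD spots held an Epcam UMI, and these spots were deeper, with medians of 16417.5 against 9704 UMIs and 28625 against 18215, so that levels were compared as CPM. Krt7 was at 6.06 CPM in NCD spots with Epcam and 0.343 CPM in those without, and at 4.60 and 0.895 CPM in HFD liver, log2 ratios of 4.14 (2.37 to 5.80) and 2.36 (1.70 to 3.0). Krt19 was at 10.1 and 0.609 CPM, and at 10.3 and 1.84 CPM, log2 ratios of 4.05 (2.75 to 5.28) and 2.49 (2.05 to 2.92). Both keratins were several-fold higher where Epcam was seen, and the share of Epcam spots with a Krt19 UMI was 11.5% (4.35 to 23.4) in NCD liver and 21.1% (16.1 to 26.7) in HFD liver.

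Cldn7 was at 9.09 and 0.685 CPM in NCD spots with and without Epcam, and at 8.22 and 1.51 CPM in HFD spots, log2 ratios of 3.73 (2.39 to 4.96) and 2.44 (1.95 to 2.92). Fxyd3 was at 14.1 and 1.45 CPM, and at 13.9 and 2.62 CPM, log2 ratios of 3.29 (2.29 to 4.21) and 2.41 (2.04 to 2.77). Sox9 had smaller ratios, 2.33 (1.25 to 3.28) and 1.05 (0.64 to 1.45), and in HFD liver its interval lay below those of Krt7, Krt19, Cldn7 and Fxyd3. Cldn3 stood at 90.9 and 81.2 CPM in NCD spots with and without Epcam and at 92.8 and 91.0 CPM in HFD spots, and both intervals of its log2 ratio included 0, at 0.16 (-0.16 to 0.47) and 0.03 (-0.09 to 0.14).

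Beside a background of 6.37% of 11960 genes in NCD liver and 5.14% of 13743 genes in HFD liver at least 2-fold higher in Epcam spots, 4 of the 5 other bile duct genes with at least 20 UMIs were so in NCD liver and 5 of 6 in HFD liver. The exception was Cldn3 in both, and Krt7 had 15 UMIs in the NCD spots compared. Summed without Cldn3, the other genes were at 50.5 CPM with and 5.29 CPM without Epcam in NCD liver and at 45.8 and 11.1 CPM in HFD liver, log2 ratios of 3.25 (2.76 to 3.73) and 2.05 (1.85 to 2.24). With Cldn3 in the sum they were 0.71 (0.45 to 0.96) and 0.44 (0.34 to 0.54). At 3000 UMIs, 7 of 39 HFD spots with Epcam (17.9%, 7.54 to 33.5) held another of these 5 genes in the first draw and 11 of 40 (27.5%, 14.6 to 43.9) in the second, against 3.23% (2.67 to 3.87) and 3.72% (3.11 to 4.4) of the rest. NCD numbers were 6 of 20 spots (30%, 11.9 to 54.3) and 5 of 14 (35.7%, 12.8 to 64.9), against 1.53% of the rest in both draws.

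Taking each gene in turn to choose the spots gave like results. Among Epcam, Krt7, Krt19, Cldn7 and Fxyd3 there were 20 ordered pairs, with log2 ratios from 2.36 to 3.26 in HFD liver, where all 20 lower bounds were above 0, and from 2.30 to 5.41 in NCD liver, where 19 were. Sox9 in spots with one of these 5 genes had log2 ratios from 1.05 to 1.61 in HFD liver and from 1.90 to 3.27 in NCD liver, and all 10 lower bounds were above 0. Cldn3 in spots with one of the other 6 genes had ratios from -0.09 to 0.11 in HFD liver and from -0.03 to 0.47 in NCD liver, and 0 of these 12 lower bounds were above 0. The pairs share spots and genes and are not independent of each other.

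**Figure D4:**
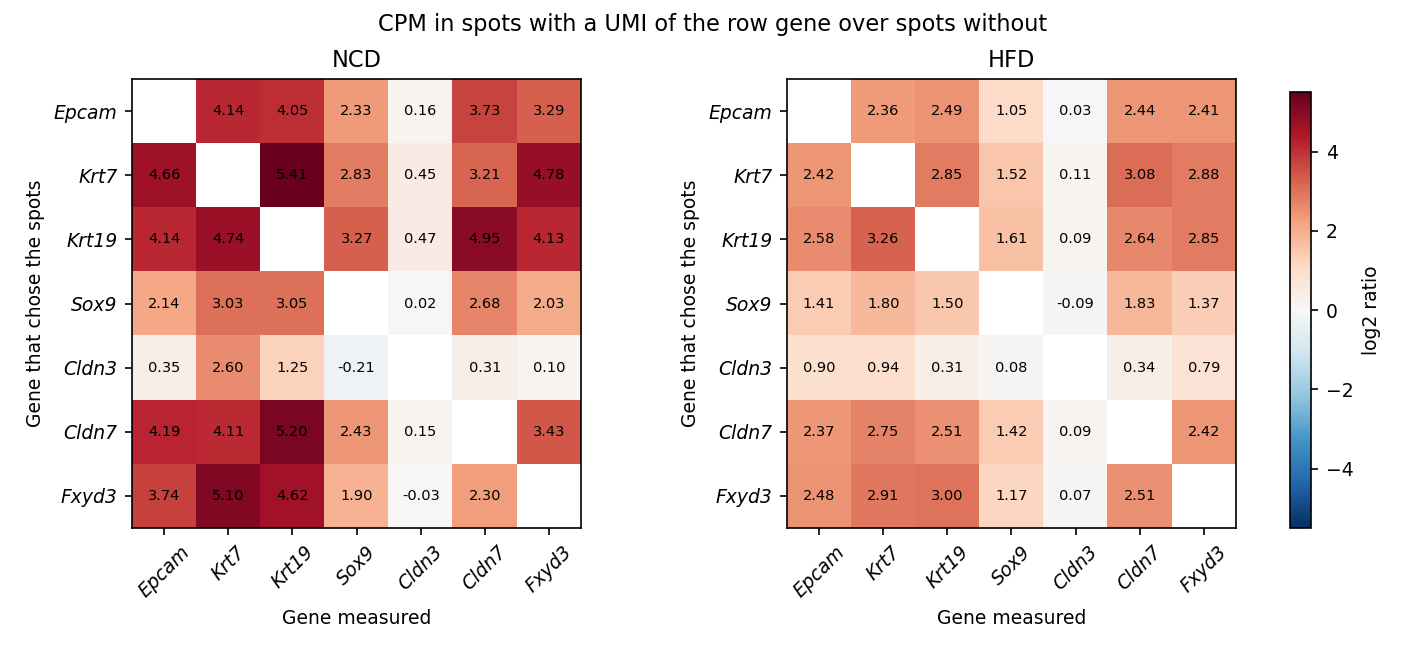
Log2 ratio of the CPM of the gene in each column between spots with and without a UMI of the gene in each row, over spots with at least 3000 UMIs, in the NCD (left) and HFD (right) section; the diagonal is empty. The Cldn3 column stays between -0.09 and 0.47, the Sox9 column reaches 3.27 in NCD and 1.61 in HFD, and the pairs in which Cldn3 and Sox9 are not the measured gene and Cldn3 did not choose the spots lie at 1.37 or above.

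The share of a gene's UMIs that lay in spots with another of the 6 genes also set Cldn3 apart in both sections, and Sox9 most clearly in HFD liver. In HFD liver it was 61.2% for Epcam, 70.3% for Krt7, 71.0% for Krt19, 65.0% for Cldn7 and 62.6% for Fxyd3, in spots that held 23.0 to 26.3% of all UMIs. For Sox9 it was 40.9% in spots with 21.0% of all UMIs, so that 199 of its 337 UMIs there lay in spots without another of the 6 genes, and for Cldn3 it was 26.4% in spots with 27.2% of all UMIs. NCD shares were 52.2% for Epcam, 80% for Krt7, 76.9% for Krt19, 44.4% for Cldn7, 59.6% for Fxyd3 and 33.3% for Sox9, in spots with 7.25 to 9.80% of all UMIs, and 10.4% for Cldn3 in spots with 10.0%.

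Genes were then ranked by how much higher they were in spots with at least 2 bile duct genes than in spots with none, over spots with at least 3000 UMIs, as the measure of a like pattern. With all 7 genes (665 and 667 HFD spots, 117 and 899 NCD spots), the 10 highest of 7550 HFD genes with at least 200 UMIs were Pdzk1ip1 (2.62 on the log2 scale, and 1.92 in NCD liver), Cd24a (2.50 and 1.88), Msmp (2.35 and 1.66), Tspan8 (2.18 and 3.69), Tff3 (2.11 and 1.43), Spp1 (1.82 and 3.27), Emp1 (1.75 and 2.13), Igha (1.72 and -0.09), Mgp (1.71 and 1.75) and Mfap4 (1.58 and 0.88). Cd24a codes for a surface glycoprotein of duct and progenitor cells, Tff3 for a secreted trefoil peptide of mucosal epithelia, and Mgp and Mfap4 for matrix proteins. For the immunoglobulin A gene Igha, made by plasma cells, and for Mfap4 the NCD intervals, -0.70 to 0.48 and -0.27 to 1.96, included 0. The 10 highest of 8063 NCD genes with at least 50 UMIs were Spp1, Cryab, Myh11, Pdzk1ip1, Snhg18, Gas6, Mgp, Tagln, Ly6d and Col1a1, from 3.27 to 1.62 in NCD liver and from 0.17 (Ly6d) to 2.62 (Pdzk1ip1) in HFD liver.

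As many of these spots qualified through Cldn3, the ranking was repeated with at least 2 of the 6 genes without it (222 and 2779 HFD spots, 42 and 1953 NCD spots). Spp1 was at 4.58 (4.39 to 4.77) in NCD liver and 2.55 (2.50 to 2.61) in HFD liver, Pdzk1ip1 at 3.52 and 3.29, Mgp at 2.84 and 2.72, and Ccl21a, a chemokine of lymphatic endothelium, at 2.88 and 2.45. These 4 were among the 10 highest in both sections. Msmp (3.29), Tspan8 (3.12), Cd24a (2.96), Scara3 (2.87), Tff3 (2.57) and Fbln1 (2.43) completed the HFD list, and Bcam (3.18), Sfrp1 (3.04), Cryab (2.97), Igfbp5 (2.93), Pamr1 (2.91) and Snhg18 (2.83) the NCD list. Spp1 itself was at 60.2 CPM in HFD zone 1 and 375 CPM in HFD zone 5, and at 7.95 and 116 CPM in the NCD zones. The paper also reports Spp1 as characteristic of a macrophage subgroup in its single-cell data. The part of such macrophages in the Spp1 values was not tested.

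**Figure D5:**
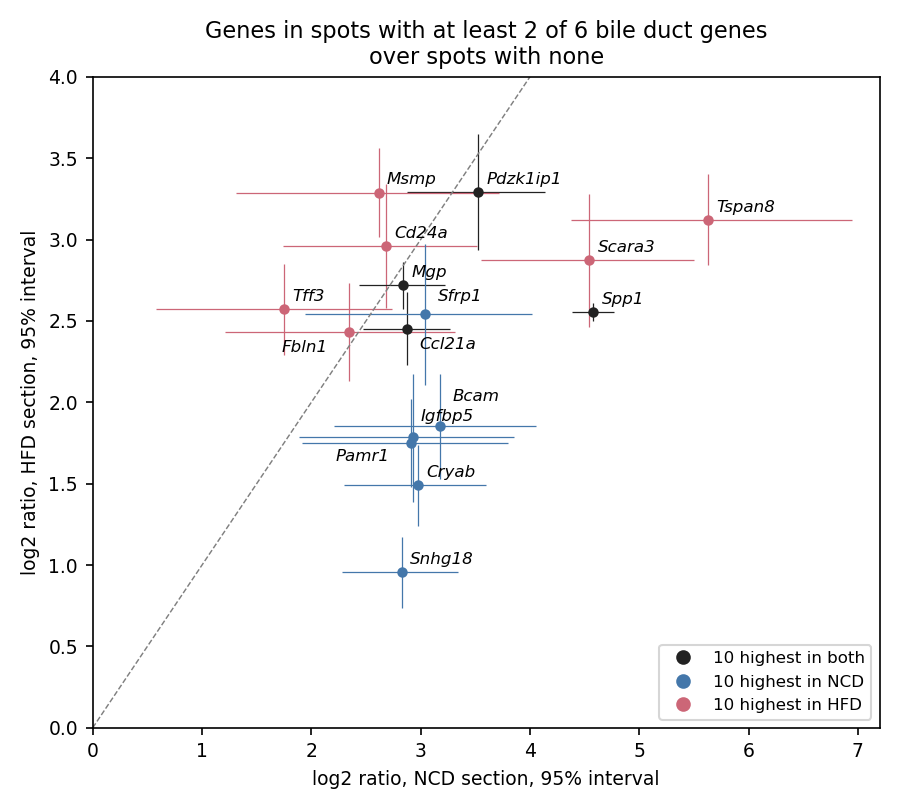
Log2 ratio of CPM in spots with at least 2 of 6 bile duct genes (without Cldn3) over spots with none, in NCD liver (horizontal) and the HFD section (vertical), for the 10 highest genes of each section, with 95% intervals; the dashed line marks equal ratios and the axes differ in scale. All 16 genes lie above 0 in both sections, with Spp1 and Tspan8 farther along the NCD axis (4.58 and 5.63) and Snhg18 lowest in HFD (0.96).

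Other genes of cholangiocytes were taken from a list of 32. Of the 29 with at least 20 UMIs in the HFD spots compared, 18 were at least 2-fold higher in spots with 2 or more of the 6 genes, and 11 of 19 in NCD liver, beside backgrounds of 6.93% of 13482 and 9.07% of 11803 genes. Among these, Prom1, a membrane protein of progenitor cells, was at 3.36 (2.83 to 3.91) on the log2 scale in HFD liver and Cdh1, the E-cadherin gene, at 2.37 (2.08 to 2.67). The secretin receptor gene Sctr, which acts in ductal bicarbonate secretion, was at 4.21 on 15 against 6 UMIs. Cldn4, another claudin, was at 3.97 (2.68 to 5.4) on 17 against 8 UMIs. The chloride channel gene Cftr, of the same secretion, was also at 4.21, on 10 against 4 UMIs. Cftr was under the minimum of 20 UMIs and is in none of these counts. Prom1, Cdh1, Sctr, Cldn4 and Cftr were picked after their values were seen. The most counted genes of the list, Clu, Cp, Krt8 and Tm4sf4, are also made by hepatocytes and were at 0.54, 0.06, 0.39 and 0.40 in HFD liver. Between the sections, 15 of 30 genes of the list were at least 2-fold higher in HFD liver, beside the background of 13.5%, with a median log2 ratio of 1.01, and the difference was 2.10 for Spp1, 1.19 (1.16 to 1.23) for Cp and 1.10 (1.05 to 1.16) for Tm4sf4.

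Signals of the ductular reaction were taken from a list of 22 genes of the Notch, YAP and TWEAK pathways, of growth factors and of epithelial injury. Between the sections, 7 of 21 were at least 2-fold higher in HFD liver, beside the background of 13.5%, and the median was 0.63. Lcn2, the lipocalin of injured epithelium and hepatocytes, was at 7.65 and 169 CPM, a log2 ratio of 4.46 (4.27 to 4.66), Tnfrsf12a, the TWEAK receptor, at 7.13 and 33.0 CPM, a ratio of 2.21 (2.0 to 2.42), Vcam1 at 1.41 (1.26 to 1.57) and Yap1 at 0.33 (0.20 to 0.46). In HFD spots with 2 or more of the 6 bile duct genes, 6 of 20 were at least 2-fold higher than in spots with none, beside the background of 6.93%, and the median was 0.52. The same 4 genes were not among these 6, with Lcn2 at 0.43 (0.35 to 0.51), Tnfrsf12a at 0.61 (0.44 to 0.79), Vcam1 at -0.16 (-0.36 to 0.04) and Yap1 between -0.22 and 0.21.

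Markers of other cells of the portal tract were also higher in spots with bile duct genes. In spots with 2 or more of the 6 genes, the 6 smooth muscle genes summed to 113 CPM against 30.1 CPM in NCD liver and to 210 against 69.6 CPM in HFD liver, and 5 (NCD) and 6 (HFD) of the 6 were at least 2-fold higher, while the sixth was at least 2-fold lower in NCD liver. The 10 portal fibroblast genes summed to 126 against 39.0 CPM and to 423 against 165 CPM, with 7 of 9 and 9 of 9 at least 2-fold higher. The 8 genes of lymphatic and portal endothelium summed to 263 against 124 CPM and to 248 against 138 CPM, with 4 and 5 of 8 at least 2-fold higher. The background for all these counts was 9.07% of 11803 genes in NCD liver and 6.93% of 13482 genes in HFD liver. A spot holds several cells, and the part of these neighbours in the gene rankings was not tested. The spots with 2 or more of the 6 genes were also deeper, with medians of 14116 against 9354 UMIs (NCD) and 31727.5 against 17523 (HFD). They were more periportal, with the summed pericentral genes of the ranking at -1.29 (NCD) and -1.97 (HFD) on the log2 scale. The part of position and depth in these ratios was not tested. The 6 plasma cell genes summed to 61.9 against 32.6 CPM in HFD liver and to 76.5 against 190 CPM in NCD liver, so that the direction differed, and this difference was not tested. Mesothelium, which covers the liver and expresses keratins, was marked by 7 genes, of which Msln had 1 NCD and 5 HFD UMIs, Upk3b and Upk1b 1 each in NCD and 0 in HFD, and Gpm6a, also made by other cells, 40 and 95. Spots with a UMI of any of the 7 held 10.4% and 11.2% of the UMIs of the 6 bile duct genes, against 2.95% and 3.85% of all UMIs. Without those spots the HFD to NCD log2 ratio of the 6 genes was 1.07 (0.87 to 1.27), and the periportal to pericentral ratios were 3.31 and 2.54.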

How the data were processed

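The authors used Space Ranger 1.3.1 to count UMIs per gene in each spot and to mark tissue, and the deposited values are raw counts with no normalization. The build in the submitters' processing notes is mm10, and the annotation is not given in the sources used here, so gene positions were taken from GENCODE M21 (GRCm38).

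CPM is a gene's summed UMIs in a set of spots relative to all UMIs of that set. No test was made, because each diet had 1 section. Intervals are at the 95% level and cover counting error only (exact Poisson for CPM, Clopper-Pearson for spot shares, exact conditional binomial for log2 ratios). In counts simulated with known ratios as independent Poisson draws at the totals of the HFD and NCD sections, the true ratio lay inside the interval for 95.7% of 14053 genes. This is the model from which the interval is derived, so the simulation checks the calculation only. It does not cover clustering of UMIs in spots or differences between mice. A gene was compared where it had at least 20 UMIs over both groups, and counted where the ratio was at least 2.

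Spots had at least 1000 UMIs for lobule position and 3000 UMIs for shared spots, and were drawn down to 3000 or 1000 UMIs in a first draw with seed 1 and a second with seed 2. This left out 840 and 4 spots, and 1585 and 56 spots, of the NCD and HFD section. A second pair of zone lists used Pck1, Arg1, Ass1, Cps1 and Ctsc (periportal) and Rhbg, Gulo, Lect2, Cyp2a5, Tbx3 and Axin2 (pericentral). The genes named are the 7, up to 4 of each list by UMIs (1 gene of the pump list is not reported here), and the 10 most like the 7 in each section; Prom1, Cdh1, Sctr, Cftr, Cldn4, Krt23 and Fxyd2, the 10 most like the 6 without Cldn3, and the mesothelial markers, were added after their values were seen. The 7 genes, the lists and the alternatives were chosen with earlier results of these data known. Spots can hold several cell types; no deconvolution was run, and images and coordinates were not used here. Other settings changed the weighting of spots, the minimum of UMIs, the total, the top 1% of spots, the zone lists, the gene that chose the spots and the subtraction of off-tissue CPM. The software was scipy 1.17.1 and numpy 2.4.6 under Python 3.11.15, with pandas 2.3.3 for tables and matplotlib 3.10.9 for plots.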

Additional observations from a re-analysis of the deposited data

How the results depend on the processing

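The sums of all 7 genes depended on Cldn3, which holds most of their UMIs. Without Cldn3, a choice made after the data were seen, the log2 ratio of HFD to NCD went from 0.29 to 1.07, that of periportal to pericentral spots from 0.10 to 3.28 (NCD) and from 0.15 to 2.70 (HFD), and that of the other genes in Epcam spots from 0.71 to 3.25 (NCD) and from 0.44 to 2.05 (HFD). Without Cldn3 and Sox9 these 5 values were 1.14, 4.11, 2.84, 3.68 and 2.43. Drawn down to 3000 UMIs per spot, the ratio of HFD to NCD was 0.17, and the ratios in Epcam spots were 1.53 (NCD) and 0.70 (HFD). A second draw, added after the data were seen, gave 0.23, 1.75 and 1.58. The second pair of zone lists gave -0.087 (NCD) and 0.0175 (HFD) for position. Without the 1% of spots with most UMIs of the genes, position in the HFD section came to 0.00663, and the ratios in Epcam spots to 0.38 (NCD) and 0.14 (HFD). With Krt19 in place of Epcam the latter were 1.38 and 0.71. The cause of these shifts other than the removal of Cldn3 was not tested.

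Of single genes, the HFD to NCD ratio changed sign for Krt7 (-0.33) and Fxyd3 (-0.18) at 1000 UMIs per spot in the first draw but not the second (1.67 and 1.40), and for Cldn7 (-0.17) after subtraction of off-tissue CPM, where the NCD remainder is not distinguishable from 0. For the 6 genes without Cldn3 it ran from 0.57 to 1.11 over 10 settings other than that subtraction, and their position ratio from 2.86 to 3.43 (NCD) and from 2.39 to 2.77 (HFD) over 6. The NCD position ratios of Krt7 and Krt19 are bounds, and that of Fxyd3 had 0 UMIs in zone 1 under the second zone lists, so these were not compared. Off-tissue subtraction gave no ratio for the sum of 7, Krt7, Sox9 and Cldn3. Leaving out a replicate could not be done with 1 section per diet. No paired analysis was possible because each diet had 1 section and the labels share 1 replicate number. Depth limits the NCD section most, where Krt7 rests on 16 UMIs and Krt19 on 27.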
